A study of Homo sapiens with 11 samples.

Results

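Narrow A549-only m6A peaks are stretches of RNA, mapped to the genome, that were called as peaks in A549 and that the H1299 peak list does not touch. The calls come from immunoprecipitations with an antibody against N6-methyladenosine, and each stretch overlaps a call in both A549 immunoprecipitations. These peaks were chosen by 3 deposited peak lists. A peak of A549 immunoprecipitation 1 had to be under 1000 bp wide and share at least 1 bp with a peak of immunoprecipitation 2. It also had to share none with an H1299 peak. The rule found 5651 peaks, or 22.5% of the 25074 peaks of immunoprecipitation 1, and they cover 2.25 Mb. A549 is a line from a human lung adenocarcinoma and H1299 a line from a human non-small cell lung cancer. Poly(A) RNA of each line was fragmented and pulled down, with 2 immunoprecipitations for A549 and 1 for H1299. For RNA-seq, a control library carrying a hairpin RNA that targets GFP (shGFP) and 2 libraries with METTL3 knocked down by shRNA (shMETTL3) were made from each line. The labels do not say whether the A549 immunoprecipitations came from separate cultures, and H1299 had no replicate list.

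N6-methyladenosine is the most common internal modification of mRNA. It is written in the nucleus by a complex in which METTL3 is the catalytic subunit, is removed by the demethylases FTO and ALKBH5, and is read by YTH domain proteins that affect splicing, decay and translation. In most transcripts it gathers in long internal exons and around the stop codon, so that 1 gene often carries several peaks close together. A peak is also only seen where its transcript is present, and fewer methylated copies cannot be told apart from fewer copies of the transcript in a peak list.

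The RNA of both lines was checked against epithelial and mesenchymal markers. Of 15 epithelial markers, 11 were higher in A549 shGFP cells and 3 in H1299 shGFP cells, on tables that were normalized separately. Those 3, ESRP1, GRHL2 and MUC1, stood at 0 in A549 and at 0.2 to 0.4 in H1299, near the floor. The adhesion receptor CDH1 stood at 386 in A549 and at 1 in H1299, and the keratin KRT19 at 422 and at 0. Of 10 mesenchymal markers, 5 were higher in each line. The filament protein VIM stood at 7562 in A549 and 14990 in H1299, but FN1 at 882 and 17.1 and SPARC at 105 and 0.2. Of 5 markers of other cells, PTPRC (leukocytes) stood at 0.26 and 0.2 and CD3E (T cells) at 0 in both lines. PECAM1, an adhesion molecule of endothelial cells, stood at 16.6 in A549 and 8.4 in H1299, the fibrillar collagen COL3A1 at 1.58 and 0, and serum albumin ALB at 0.79 and 0.2. The targeted gene METTL3 had a value of 557 in the A549 control, against 231 and 232 after its knockdown, and of 271 in the H1299 control, against 123 and 100.2.

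The 3 peak lists differed in their own make-up before any overlap was taken. Immunoprecipitations 1 and 2 of A549 held 25074 and 26644 peaks with median widths of 224 and 216 bp, covering 9.09 and 8.77 Mb. The H1299 list held 39235 peaks with a median width of 795 bp and a lowest width of 271 bp, covering 42.0 Mb. The narrowest A549 peaks were 66 and 53 bp. Depth of the immunoprecipitation libraries is unknown, and the part of these differences in the results below was not tested.

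About 3 in 5 narrow peaks of immunoprecipitation 1 were found again in immunoprecipitation 2, and most of those lay on an H1299 peak. Of 23633 narrow peaks, 14022 (59.3%) overlapped a peak of immunoprecipitation 2. Of these 14022, the 5651 members (40.3%, exact 95% binomial interval 39.5 to 41.1, for counting error only) had no H1299 peak and 8371 (59.7%) had one. The latter are called common peaks here. Among 1427 wide peaks (1000 bp or more) found in both immunoprecipitations, 53.3% had no H1299 peak, and among 9611 narrow peaks found only in immunoprecipitation 1 the share was 49.0%. These shares follow from the rule, and with 1 H1299 list they carry no test between lines. Seen from H1299, 6957 of 39235 peaks (17.7%) overlapped a peak in both A549 lists.

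Members were well placed on their partner peaks in the replicate. In 5421 of 5651 members a single peak of immunoprecipitation 2 overlapped, in 221 there were 2, and in 9 there were 3 or more. The partner covered a median of 89.0% of the member (quartiles 74.2 and 97.0), against 87.4% (65.1 and 95.9) for common peaks. At least 50% of the peak was covered in 91.3% of members and in 85.0% of common peaks. The partner itself overlapped an H1299 peak in 5 members, and it was 1000 bp or wider in 134. Each partner overlaps a member, which the rule required to be free of H1299 peaks, so the count of 5 was partly fixed by the rule.

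Members were somewhat wider than common peaks. Their width had a median of 351 bp (quartiles 195 and 569), against 306 bp (185 and 500.5) for common peaks. The share of peaks without an H1299 peak was 48.6% below 100 bp, dropped to 31.9% between 100 and 149 bp, and from there climbed to 42.1% between 500 and 699 bp and to 52.6% between 700 and 999 bp. The exact intervals of the lowest and the top class, for counting error only, were 29.3 to 34.6 and 50.1 to 55.1. The limit of 1000 bp cut through this range without a step, since peaks of 1000 to 1499 bp stood at 55.2%. The share then stood at 54.5% between 1500 and 1999 bp and at 42.8% (36.0 to 49.8) from 2000 bp up. Just inside it lay, on hg19, the members chr16:89661737-89662735 and chr3:52514919-52515917, both 999 bp, and chr19:10225119-10226116, 998 bp. Just outside lay chr1:2115923-2116922 and chr3:53258614-53259613, both 1000 bp, and chr22:46758267-46759267, 1001 bp.

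**Figure D1:**
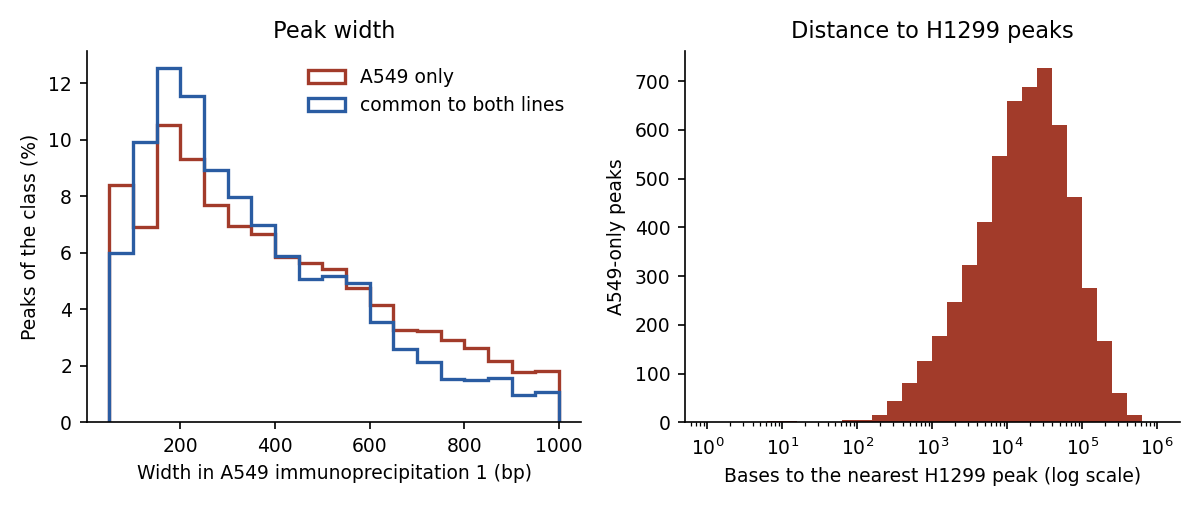
Left, the width of A549-only and common narrow peaks in bp, as the percent of each class in bins of 50 bp. Right, the number of A549-only peaks by the bases to the nearest H1299 peak, on a log scale; the median is 17.8 kb and 12 peaks lie within 100 bases.

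Peak strength in A549 did not separate the members from the common peaks. The authors' score of the partner peak in immunoprecipitation 2, whose scale is not given in the sources used here, had a median of 112.7 over members (quartiles 75.8 and 188) and of 113.0 over common peaks (76.5 and 188). When the 14022 peaks were cut into 10 groups of like size by this score, the share without an H1299 peak stayed between 38.6 and 41.7% in all 10. It was 41.3% in the weakest group (scores of 50 to 59.9) and 38.6% in the strongest (322 to 3066), with intervals of 38.7 to 44.0 and 36.1 to 41.2 that overlapped. With widths pooled, members were therefore as frequent among the strongest narrow A549 peaks as among the weakest, to within a few percentage points. Within width classes this did not always hold.

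The share by strength was then read within width classes. Wider peaks had higher scores, with a partner median of 71.7 below 100 bp and 239 between 700 and 999 bp. Between 100 and 299 bp, 35.0% of peaks scoring below the median of 113 and 35.4% of those at or above it had no H1299 peak. Between 300 and 499 bp the shares were 42.2% (39.9 to 44.6) and 37.1% (34.9 to 39.3), and between 500 and 699 bp they were 44.2% (40.4 to 48.1) and 41.2% (38.9 to 43.6). Between 700 and 999 bp it was 165 of 251 peaks below the median score (65.7%, 59.5 to 71.6) and 653 of 1305 at or above it (interval 47.3 to 52.8%). In these 3 classes the weaker peaks were more often A549-only, although the intervals overlapped between 500 and 699 bp.

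**Figure D2:**
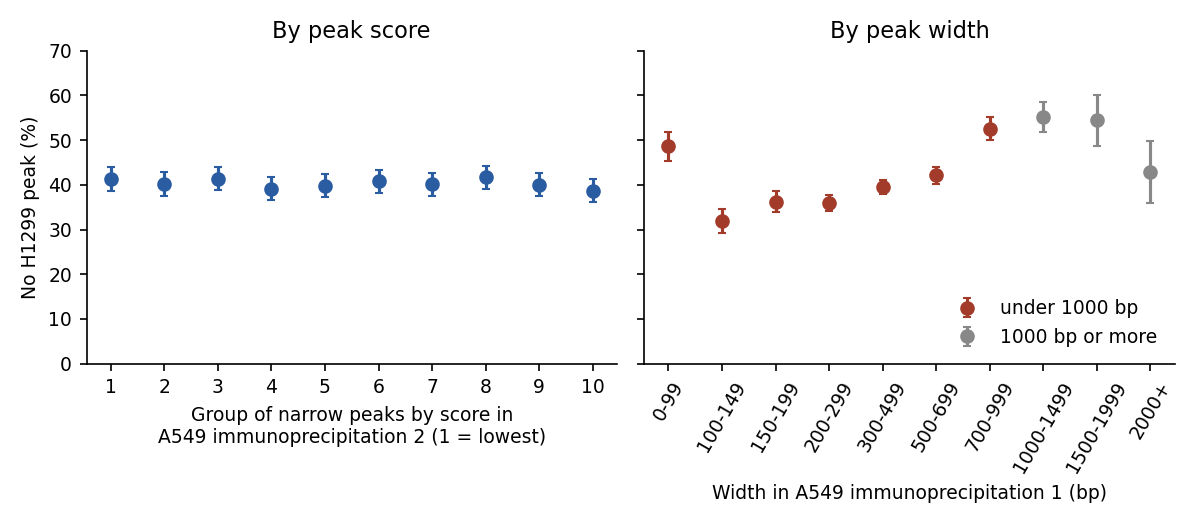
Percent of A549 peaks found in both immunoprecipitations that have no H1299 peak, with exact 95% binomial intervals as bars. On the left the narrow peaks are cut into 10 groups by score and all points lie between 38.6 and 41.7%. On the right peaks are grouped by width, and the point below 100 bp stands at 48.6%. The points climb from 31.9% at 100 to 149 bp to 52.6% at 700 to 999 bp. From 2000 bp up the point stands at 42.8%.

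The 12 members with the highest partner scores lay on 9 nuclear chromosomes and on the mitochondrial genome. The first was chr19:3464450-3464853, a peak of 404 bp with a partner score of 2812, at 11.6 kb from the nearest H1299 peak. It was a narrow call inside a partner of 2111 bp. The second, chr8:144809949-144810448, had a score of 2585 and a partner of 2718 bp, and lay 31.4 kb from H1299 peaks. Partners wider than 2000 bp also covered most of chr10:77159299-77160192 (score 1968, partner 2040 bp), chr7:150070485-150071088 (1856, 3143 bp), chr15:84867725-84868700 (1698, 2170 bp) and chr16:4432710-4433456 (1582, 2443 bp). The chromosome 10 peak lay only 319 bases from an H1299 peak, and the other 3 lay 22.3 to 67.3 kb away.

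In the remaining strong members both immunoprecipitations outlined nearly the same stretch, except on the mitochondrial genome. The peak chr11:57244099-57244976 shared 873 of its 878 bp with a partner of 874 bp (score 2093). In chr12:6499809-6500804 the partner of 901 bp lay wholly inside the member (score 1836), and in chr14:65405868-65406617 the partner of 737 bp did too (score 1345). The peak chr19:5222614-5223371 shared 737 bp with a partner of 748 bp (score 1404), and chr14:105964970-105965824 shared 670 bp with one of 688 bp (score 1450). On the mitochondrial genome chrM:10074-10525 shared just 6 bp with a partner of 5421 bp, so that its score of 1704 belongs mostly to other sequence. The H1299 list has no peak on the mitochondrial genome, against 2 and 4 in the A549 lists.

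Few members lay within 1000 bases of an H1299 peak. No distance for randomly placed peaks was worked out for comparison. The gap to the nearest had a median of 17.8 kb (quartiles 6.13 and 45.1 kb). It was at most 100 bases in 12 members and 101 to 1000 bases in 271, or 0.2 and 4.8%. A further 1704 (30.2%) lay at most 10 kb away, 3147 (55.7%) at most 100 kb, and 516 (9.1%) farther still. Nearest of all were chr14:104643855-104644028 with 2 bases between, chr3:54672021-54672107 with 7, chr5:180236435-180236797 with 8, chr5:140741587-140741730 with 11 and chr22:51159505-51159680 with 12. Farthest was chr21:25256532-25256609, a 78 bp peak of score 72.8 at 493 kb. After it came the neighbouring peaks chr10:73122379-73122721 and chr10:73122787-73123110 at 459 kb (scores 140 and 57.4), chr2:121747657-121748321 at 448 kb (score 769) and chr14:98916716-98916807 at 446 kb (score 109).

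A549-only peaks had A549-only neighbours more often than common peaks did. Another member was found within 10 kb of 2500 of 5651 members (44.2%), but within 10 kb of only 1146 of 8371 common peaks (13.7%). A common peak was found within 10 kb of 1067 members (18.9%) and of 4980 other common peaks (59.5%). One wide H1299 peak can cover several narrow A549 peaks, which raises the last share: a common neighbour on another H1299 peak was found for 1776 common peaks (21.2%). Likewise 1 partner peak can span several members, which raises the share of 44.2%. No such correction was made for members, so 44.2 and 21.2% are not on the same footing. Whether neighbouring members lie in 1 transcript was not tested, since peaks were not given to genes here.

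The members were spread unevenly over the chromosomes. On chromosome 16, 389 of 707 narrow A549 peaks in both immunoprecipitations had no H1299 peak (55.0%, 51.3 to 58.7). On chromosome 17 it was 515 of 979 (52.6%, 49.4 to 55.8), and on chromosome 19 it was 615 of 1311 (46.9%, 44.2 to 49.7). At the other end stood chromosome 18 with 45 of 161 (28.0%, 21.2 to 35.6), chromosome 13 with 61 of 204 (29.9%, 23.7 to 36.7), chromosome 5 with 204 of 654 (31.2%, 27.7 to 34.9) and chromosome X with 158 of 498 (31.7%, 27.7 to 36.0). Chromosomes 21 and 22 stood close to 19, at 46.4% (37.9 to 55.1) and 45.7% (40.6 to 50.9). Chromosome 11 stood at 44.9% (41.3 to 48.6). Chromosomes 16, 17 and 19 are known for their high density of genes, and 13 and 18 for their low density. A link between gene density and the share was not tested. Together 16, 17 and 19 held 26.9% of the members, 17.7% of the common peaks, 17.8 and 20.5% of the peaks of immunoprecipitations 1 and 2, and 8.6% of H1299 peaks.

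**Figure D3:**
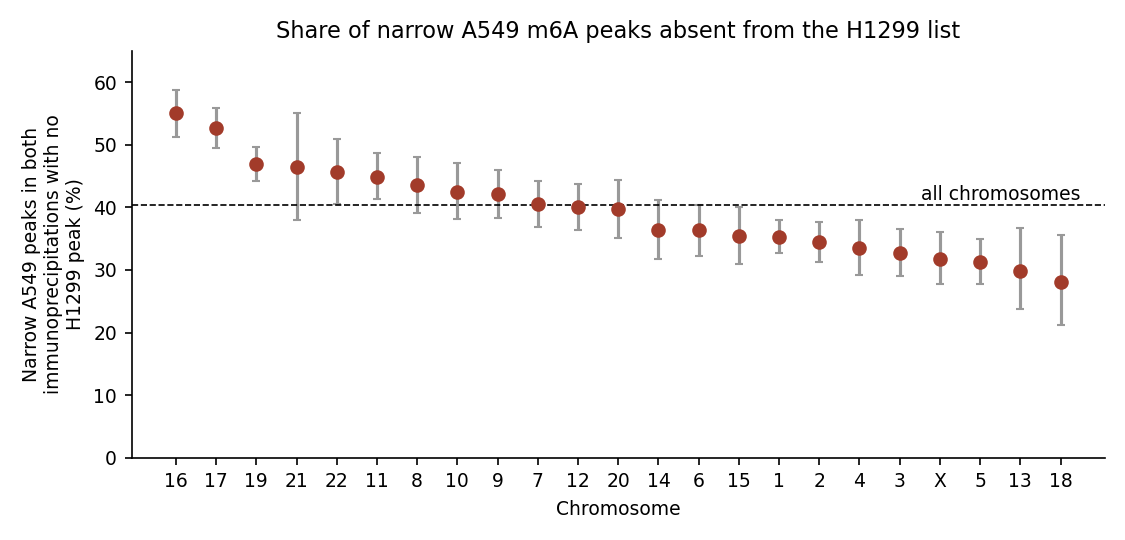
Percent of narrow A549 peaks found in both immunoprecipitations that have no H1299 peak, by chromosome in falling order, with exact 95% binomial intervals as bars; the dashed line is the value over all chromosomes, 40.3%. Chromosomes 16 and 17 stand at 55.0 and 52.6% and chromosome 18 at 28.0%; Y (10 of 44 peaks) and the mitochondrial genome (1 peak) are left out.

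The share was higher on chromosomes 16, 17 and 19 in each width class and on both sides of the median score, but in the narrowest 2 classes the intervals overlapped. Over chromosomes 16, 17 and 19 the share without an H1299 peak was 50.7% (48.9 to 52.5) and over all others 37.5% (36.6 to 38.4). Below 100 bp it was 58.1% (48.9 to 66.9) against 47.2% (43.9 to 50.7), and between 100 and 149 bp it was 36.9% (30.1 to 44.1) against 318 of 1026 peaks (28.2 to 33.9%). Between 200 and 299 bp it was 47.6% (43.5 to 51.8) against 32.8% (30.8 to 34.8), and between 700 and 999 bp it was 60.5% (lower bound 55.9) against 49.3% (46.3 to 52.3). Below the median score it was 54.8 against 37.0%, and at or above it 47.4 against 38.0%. The 3 chromosomes were grouped after their values were seen, so the contrast between the groups is a description.

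Set against the genes with RNA, members were densest on chromosomes 16, 17 and 19 among the autosomes and X. Genes of the RNA tables were placed on chromosomes by symbol, and those with a value of at least 1 in a line's shGFP library were counted. Chromosomes 16, 17 and 19 held 50.2, 49.5 and 51.2 members per 100 such A549 genes, against 18.9 on chromosome 13, 19.3 on 18 and 22.4 on 3. Chromosome 9 had 40.2, chromosome 21, with 163 such genes, had 39.3, and chromosome 1, with 1649, had 28.9. Common peaks ranged over the autosomes only from 41.0 (chromosome 16) to 59.0 (chromosome 5) per 100 genes, and chromosome 19 was near the top with 57.9. H1299 peaks went the other way, with 135, 112 and 110 per 100 H1299 genes on chromosomes 16, 17 and 19, but 442 on 4, 358 on 18, 356 on 5 and 461 on X. Chromosome Y, left out of this comparison, had 437 H1299 peaks and only 9 such H1299 genes. The H1299 list decides which peaks are members, so the counts of members and of H1299 peaks on a chromosome are not independent. An H1299 peak removes a member only where it overlaps a narrow A549 peak, and 17.7% of H1299 peaks overlapped both A549 lists. How far this shaped the values by chromosome was not tested.

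**Figure D4:**
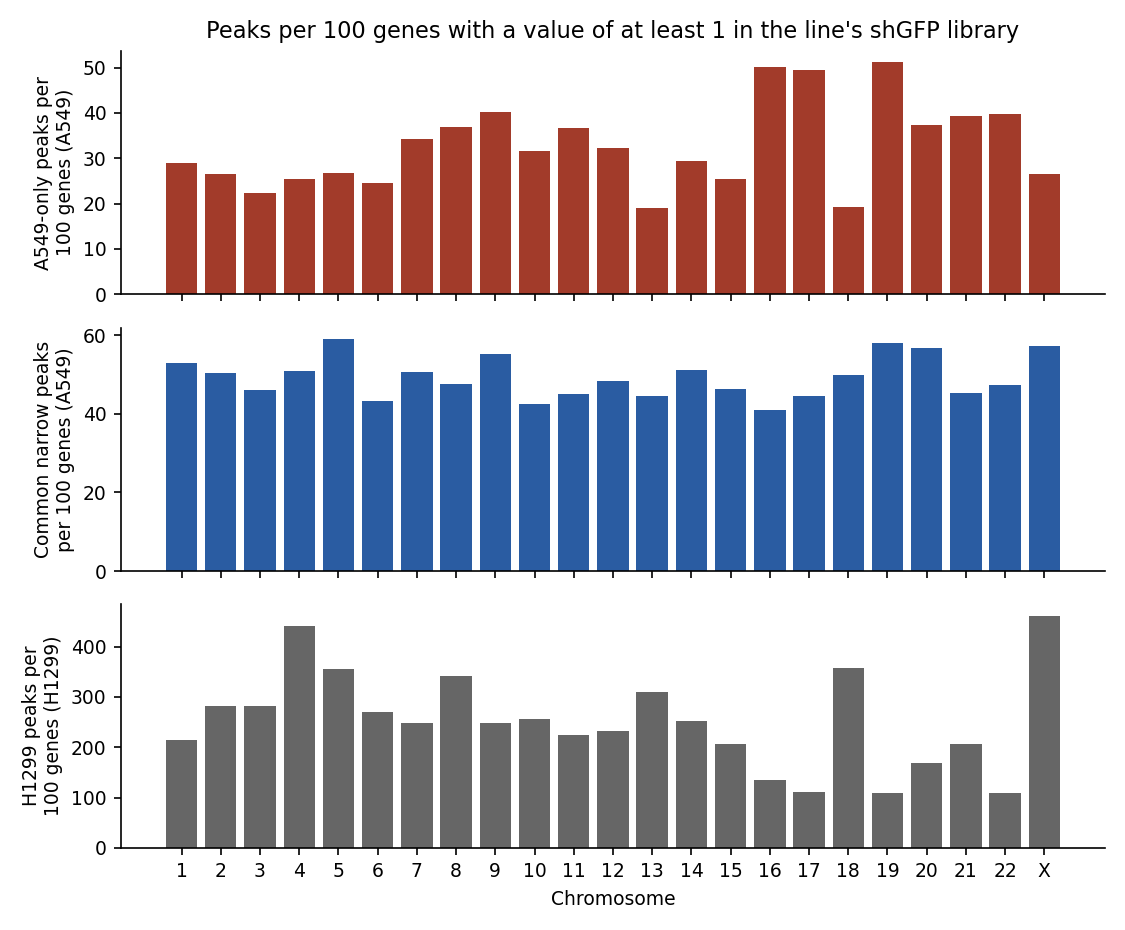
A549-only peaks, common narrow peaks and H1299 peaks per 100 genes with a value of at least 1 in the shGFP library of the line, for chromosomes 1 to 22 and X. Chromosomes 16, 17 and 19 have the tallest bars in the top panel (50.2, 49.5 and 51.2) and chromosomes 19, 22 and 17 the shortest in the bottom one (110, 110 and 112).

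RNA levels of chromosomes 16, 17 and 19 did not share a direction between the lines. Expression was compared only by chromosome, as the median over its genes of the difference in log2(value + 1) between the shGFP libraries, after each library was centred on its own median over 15565 genes. A549 minus H1299 stood at -0.22 on chromosome 16 (712 genes), at 0.20 on chromosome 17 (942 genes) and at -0.79 on chromosome 19 (1111 genes). Chromosome 1, where 476 of 1350 narrow A549 peaks in both immunoprecipitations had no H1299 peak (35.3%), stood at -0.18 (1474 genes). Against the mean of the 3 H1299 libraries, the 3 A549 libraries spanned -0.19 to -0.17, 0.21 to 0.25 and -0.85 to -0.78 on chromosomes 16, 17 and 19. Across the 22 autosomes, Spearman's rho between this difference and the share without an H1299 peak was -0.22. For that share and H1299 peaks per 100 H1299 genes, rho was -0.74. For that share and members per 100 A549 genes, it was 0.91, and the rule partly fixes both values. The tables were made separately, so the RNA differences carry no test. Medians over all genes of a chromosome do not describe the genes that carry members, which were not identified. Whether expression plays a part in the members was not tested.

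Within chromosomes, most 1 Mb windows with members held few of them. Of the 1 Mb windows that held any, 630 of 1507 held 1 member, the median was 2, and 31 held 20 or more, with 804 of the 5651 members between them. The first Mb of chromosome 11 held the most, 44 members beside 12 common peaks, although 30 H1299 peaks lay in the same window. The first Mb of chromosome 16 held 33 members and 10 common peaks, and chr17:79000001-80000000 held 36 and 20. In chr11:67000001-68000000 there were 31 members and 5 common peaks, and in chr16:88000001-89000000 there were 30 and 6. Windows were ranked after their values were seen.

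The window chr10:5000001-6000000 held 30 members against 3 common peaks (90.9% without an H1299 peak, 75.7 to 98.1). That interval overlaps those of chr11:67000001-68000000 (86.1%, 70.5 to 95.3) and chr16:88000001-89000000 (83.3%, 67.2 to 93.6). Its members had a median width of 248.5 bp and partner scores of 59.9 to 378, and no wide peak found in both immunoprecipitations lay in the window. Of the 30, 7 lay in chr10:5008092-5020644, 8 in chr10:5031522-5052726, 6 in chr10:5136615-5149856 and 3 in chr10:5242203-5255111. The H1299 list had 16 peaks in the same Mb.

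Linking members with gaps of at most 10 kb gave 916 groups of 2 or more, which held 2500 members, and 69 groups of 5 or more. The 8 longest groups were of 2 kinds. In 1 kind the peaks differed from each other in width and, with few exceptions, in score. The group chr12:52626508-52647471 had 11 members of 105 to 967 bp, with 11 different partner scores between 69.1 and 573, and 1 H1299 peak between them. Likewise chr17:19641183-19648826 had 9 members of 234 to 959 bp within 7.64 kb, with 9 different scores between 146 and 798, and no H1299 peak within 10 kb. Of the same kind were chr16:88493833-88503898 (9 members, scores 118 to 583) and chr19:59057116-59085083 (11 members, scores 61.8 to 927).

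In the other kind the peaks repeated each other at even spacing. The 13 members of chr1:228745043-228781038 were all 224 bp wide, 11 of them had the partner score 87.46, and 10 of 12 spacings lay within 10% of the median of 2241 bp. The 10 members of chr19:48407596-48455753 were 162 to 175 bp wide and spaced 5055 to 5404 bp apart, and 6 had the score 63.99. At the end of the long arm of chromosome 4, the 16 members of chr4:190988078-191012262 alternated between short and long spacings, and from each to the next but one it was 3214 to 3372 bp. The 12 members of chr10:135479623-135497488 behaved the same, with 3299 to 3310 bp to the next but one, just 2 widths (319 and 462 bp) and the score 52.33 in 6 of them. No H1299 peak lay within 10 kb of any of these 4 groups. The ends of the long arms of chromosomes 4 and 10 are known to carry macrosatellite arrays, and the long arm of chromosome 1 an array of 5S ribosomal RNA genes. Whether the peaks lie in them, and how reads with several matching places were handled, was not tested.

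**Figure D5:**
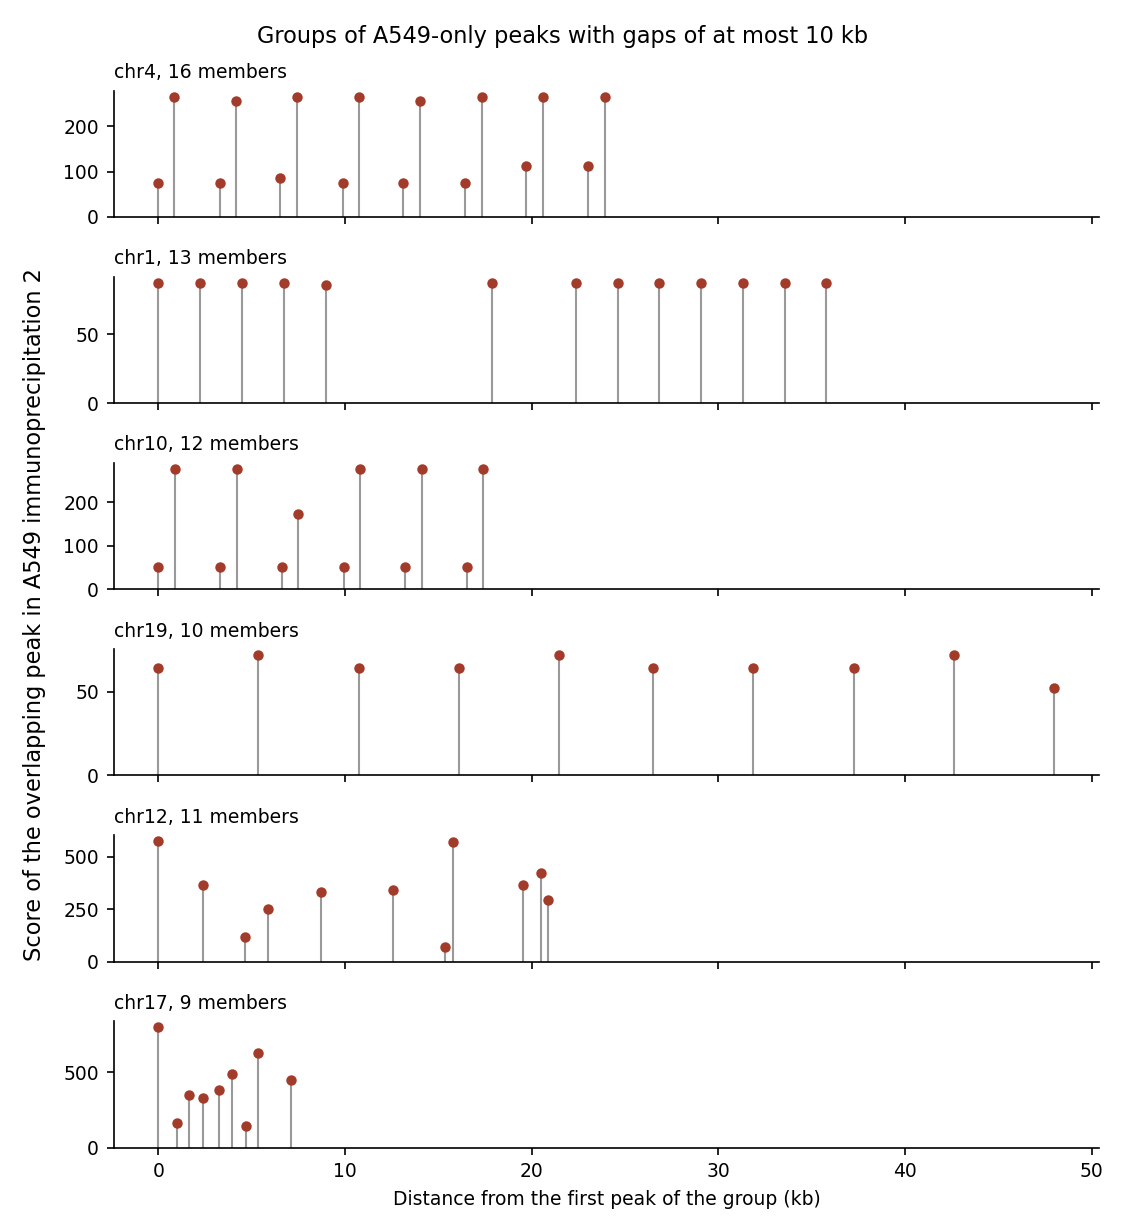
Shown are 6 of the 8 longest groups of A549-only peaks, each peak placed by its distance in kb from the first of its group, with the score of its partner in immunoprecipitation 2 as height. The groups on chromosomes 4, 1 and 10 and the group of 10 on chromosome 19 repeat the same few heights at even spacing, while the groups on chromosomes 12 and 17 vary from peak to peak.

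Exactly the same width and partner score as another peak of its group was found for 57 of 5651 members (1.01%). Counted over the whole genome, 219 members (3.88%) shared both with another member, 124 of them with one on the same chromosome, against 162 of 8371 common peaks (1.94%) that shared both with another common peak. The 4 regular groups hold 51 members, and without them 5600 members (40.1% of 13971) remain.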

How the data were processed

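TopHat, Bowtie and hg19 are named in the submitters' processing notes without roles or versions. Per the file headers and peak names, peaks carry names starting with MACS; its version, thresholds and use of the inputs are not given in the sources used here, and the inputs were not analysed here. The authors' peak score (immunoprecipitation 2 and H1299; 0 throughout for immunoprecipitation 1) has no stated scale and was used only within its list. RNA values are a signal for each gene, scaled by the authors in a way not given in the sources used here.

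Overlaps were taken with bedtools 2.31.1 (at least 1 bp), and gaps, counts and exact 95% binomial intervals with Python 3.11.15, pandas 2.3.3 and scipy 1.17.1. Overlap code was tested on simulated peaks. Coordinates are hg19, with the first base as 1. Gene symbols were placed on chromosomes through RefSeq (GRCh38.p14 names, no coordinates), which matched 95.9% of names in each table. With no hg19 annotation or sequence used here, peaks were not given to genes, the planned gene comparisons between lines and after METTL3 knockdown were not run, and no sequence is printed. No statistical test was run, because peaks of 1 library are not replicates and H1299 has 1 list. The exact intervals treat each peak as independent, although 44.2% of members had another member within 10 kb. Whether 2 intervals overlap is therefore a description and not a test.

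The members, marker lists and comparisons were chosen with earlier results of these data known. Named peaks are the 12 of highest partner score, the 5 farthest from and 5 nearest to H1299, the 3 on either side of the width limit and the densest groups (gaps of at most 10 kb). The text gives 8 groups where the rule set 3; these, the 1 Mb windows and the chromosome groups were chosen after their values were seen.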

Additional observations from a re-analysis of the deposited data

How the results depend on the processing

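The count of 5651 narrow A549-only peaks stayed within 1.5 times under the other width limits, overlap rules and score limits, between 3786 and 8137. It was 3664 when no H1299 peak was allowed within 10000 bp, and 10363 and 12361 when immunoprecipitation 2 or 1 was left out, since peaks then needed no second immunoprecipitation. The share of narrow peaks without an H1299 peak (40.3%) was 43.8 and 48.5% in those last 2 cases. It was 38.0% under 500 bp, 41.5% under 2000 bp, 41.9% with at least 50% of the peak covered, 41.8% with 50% reciprocal overlap, 38.3% with no H1299 peak within 1000 bp and 26.1% within 10000 bp. With only the H1299 peaks at or above their median score it was 58.0%. Without chromosomes 16, 17 and 19, chosen after seeing the data, it was 37.5% (4132 peaks). Taking the lowest in place of the highest score where several peaks overlapped gave a median of 108.8 in place of 112.7. No paired analysis was possible because no test was run and the peak lists compared between lines share only 1 replicate number. The gene comparisons and their alternatives were not run. The H1299 list is single and its depth is unknown, which limits every value above.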
